A study of Mus musculus with 74 samples.

Results

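CD8 T cells sorted from the spleens of mice aged 12 months were compared with those of mice aged 3 months, across all genes of a bulk RNA sequencing count table. The groups were taken from the titles of the libraries, which name the sorted type, the age and the organ. They hold 4 libraries at each age, 8 of the 74 libraries of the series. All mice were C57BL/6J animals from a commercial breeder, marked F in the titles, that carried MC38 tumors, a mouse colon carcinoma line placed under the skin, and organs were taken on day 10 of tumor growth. Spleen cells were sorted as CD45+TCRb+CD8+, 1000 cells per library and sorted a second time for purity, and the cDNA was made with Smart-seq2, a full-length protocol for small cell numbers. Tumor-free animals are not among the groups used here, so both ages carried a tumor elsewhere in the body. Other sorted T cell groups, each at both ages, serve only to show where the splenic CD8 T cells differ: tumor CD8 T cells (4 libraries per age), spleen conventional CD4 T cells (CD4+ CD25-, 4 at 12 months and 3 at 3 months) and spleen regulatory T cells (CD4+ CD25+, 4 per age). Nothing in the labels says that the libraries of a group came from separate animals, so the p-values below measure the spread between libraries, which may be technical. Nor do the labels say whether the sorted groups of one age share animals, so their age effects may not be independent.

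CD8 T cells recognise peptides on MHC class I molecules and kill infected or transformed cells. A young spleen holds mostly naive CD8 T cells, which recirculate through lymphoid organs with homing receptors such as CCR7 and are kept quiescent by transcription factors such as TCF-1 and LEF-1. With age and antigen exposure, cells with a memory phenotype (CD44 high, CD122 high) accumulate. Such cells can carry receptors first described on natural killer (NK) cells, keep granzymes and chemokine transcripts ready, and leave the recirculating pool for inflamed tissue. In a bulk library a change in the number of cells of one state and a change in RNA per cell cannot be told apart.

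Total counts ran from 3099520 to 6946781 per library, mitochondrial transcripts took 7.73% to 11.16% and ribosomal protein transcripts 3.99% to 5.96% of them, with both ages spread over these ranges. The transcripts of the sort did not differ detectably: none of 12 identity genes of CD8 T cells passed the test, and their median log2 fold change was -0.01. Cd8a had 915 ± 92.1 against 1013 ± 169.9 CPM (mean ± SD, n = 4 libraries at each age, here and below), Cd3e had 206 ± 21.4 against 213 ± 17 CPM and Trac, the constant segment of the alpha chain, 819.9 ± 31.6 against 889 ± 63.6 CPM. CPM is the count of a gene scaled to the total of its library. On the first principal component of log2(CPM + 1), which held 20.9% of the variance, the libraries of 12 months lay between -21.7 and -11.5 and those of 3 months between 0.903 and 35.7.

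At 12 months 108 genes rose and 11 fell among 11677 tested (edgeR quasi-likelihood test, adjusted p under 0.05, 1.02% called in either direction). The risen genes were 0.925% and the fallen 0.0942% of all tested. Risen genes had a median log2 fold change of 1.45 and a range of 0.48 to 4.05, and 74 of them rose more than 2-fold. None of the 11 fallen genes passed 2-fold, with a median of -0.62. The 4 libraries of one age lay entirely above or below the other 4 for 105 of the risen and for all 11 fallen genes, against 4.89% of all genes tested. The genes were called on these same libraries, so this separation follows largely from the selection and is not separate support. The median over all genes tested was -0.0046, and 49.2% of them were higher at 12 months. The count of 119 was 72 when replicate 1 of the old group was left out, 73 for its replicate 4 and 72 for replicate 3 of the young group, and it was 192 without a filter on low counts (160 higher and 32 lower). When all 4 groups of CD8 T cells shared one fit, 75 genes were called, all higher, so that no fall passed. That fit kept 61 of the 119 calls. Among the lost calls were those of Klre1, Klra7, Klra13-ps, Klrb1c, Klrg1, Gzmm, Nkg7, Cst7, S1pr5, Ccl4, Cd38, Lag3, Lair1, Eomes, Ptger4, Gpr15 and Ms4a4c. With 1 library left out, 3 to 18 genes were called lower. No called gene changed sign under any of these alternatives, and 36 of the 119 stayed called under all 13.

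The largest group of risen genes encodes C-type lectin receptors of NK cells and memory CD8 T cells. Of 21 tested members of the list of NK lectin receptors and their partners, 9 rose and none fell, with a median log2 fold change of 1.58. Klrk1, which encodes the activating receptor NKG2D, had 178, 214, 240.2 and 183 CPM at 12 months against 60.9, 57.3, 57.9 and 59.4 CPM at 3 months. Every library of 12 months stood at about the same height above a tight group of young libraries and a log2 fold change of 1.80 (adjusted p = 9.59e-09, SE 0.13). Klrc1, the gene of the inhibitory subunit NKG2A, had 61.8, 55.8, 74.3 and 48.4 CPM at 12 months against 12.4, 9.47, 14.6 and 18.3 CPM at 3 months, and rose by 2.15 (adjusted p = 2.12e-06, SE 0.21) on the log2 scale. Klrc2, its activating relative NKG2C, had 20.9, 29.4, 23.2 and 28.9 CPM at 12 months against 5.61, 6, 5.65 and 6.36 CPM at 3 months, with a log2 fold change of 2.12 (adjusted p = 6.69e-05, SE 0.27). Klre1, a partner chain of other receptors of this family, rose by 1.95 (adjusted p = 2.94e-07, SE 0.17), from 18.8 ± 2.53 to 72.2 ± 4.51 CPM.

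The other 12 tested members of the list did not pass, and 2 of them had a negative fold change. Among the 12 was Klrd1, the gene of CD94, the chain with which NKG2A and NKG2C pair at the cell surface. It had 356, 293, 275 and 340.4 CPM at 12 months against 366, 259, 265 and 312 CPM at 3 months, and the ages overlapped, with a log2 fold change of 0.08 (adjusted p = 0.973, SE 0.12). Klrg1, an inhibitory receptor of terminal effector cells, was low but rose, with 14.1, 16.1, 14.6 and 10.2 CPM at 12 months against 5.61, 0.231, 2.23 and 1.71 CPM at 3 months and a log2 fold change of 2.42 (adjusted p = 0.0124, SE 0.50), a call that was lost in 4 of the 8 fits with 1 library left out. Klrb1c, which encodes NK1.1, rose by 1.71 (adjusted p = 0.0111, SE 0.35), and Klra7, the gene of the inhibitory receptor Ly49G, by 1.58 (adjusted p = 0.000347, SE 0.23). Klrc1 and Klrc2, and the Klra genes among themselves, are close paralogs between which counted reads may be shared.

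These receptor genes lie together in the natural killer gene complex on chromosome 6 (GRCm38, the build named mm10 in the submitters' notes). Between 128778485, the start of Klrb1c, and 130386874, the end of Klra1, 18 genes of the Klr and Clec families and Cd69 were tested. All 15 Klr genes had a positive fold change, 8 of them past the threshold, and none fell. The risen genes Klre1, Klrk1, Klrc2 and Klrc1, fill the stretch from 129577905 to 129678973, in which Klrd1 was the 1 tested gene that did not pass. The Clec genes and Cd69, which lie between the Klr genes in the order of the chromosome, showed small differences. Cd69, an early activation marker, had 371 ± 72.9 against 387 ± 16.5 CPM, and Clec2d, the gene of a ligand of NK1.1-family receptors, 41.6 ± 9.66 against 37.3 ± 6.7 CPM.

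**Figure D1:**
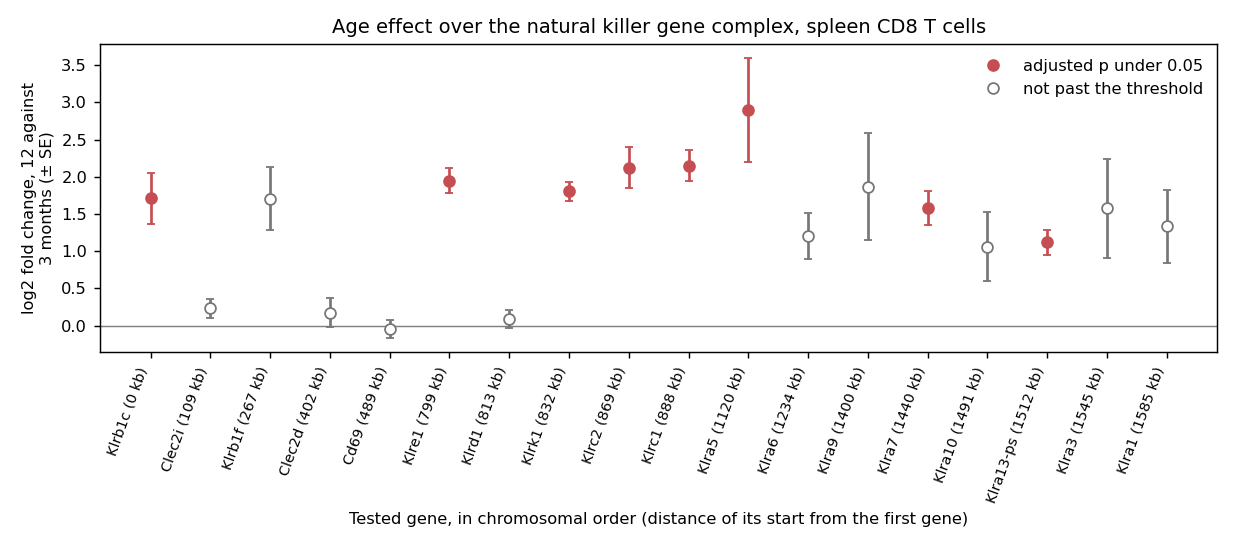
log2 fold change (12 against 3 months, ± SE from the edgeR fit over 4 libraries per age) of the 18 tested genes of the complex in chromosomal order, with the distance of each start from that of Klrb1c in kb. Filled points passed the threshold. The 15 Klr genes all lie above 0, while Klrd1, Cd69 and the 2 Clec genes lie near it.

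Sequence upstream of the start was examined because neighbouring genes moved together and because genes of 2 families of DNA-binding factors, RUNX and T-box, were among those that rose (below). RefSeq promoter sequences (GRCm38.p6) matched 81 of the 108 risen genes and 8 of the 11 fallen ones, and the 250 bases before each start were searched on both strands. The RUNX core TGTGGT stood in 25.9% of the matched risen genes, in 13.4% of 8221 matched tested genes and in 15.9% of all 27025 genes of the table. It was present in 5 of 7 matched Klr genes that rose, a subset chosen after its values were seen. These 5 count among the 21 risen genes with the core. As neighbours of one gene family they need not be independent, and the share without them was not computed. The T-box letters AGGTGTGA stood in 2.5%, 0.9% and 1.3% of the same 3 sets, the E-box CACGTG in 9.9%, 10.3% and 6.9% and the ETS site CCGGAAGT in 2.5%, 7.6% and 3.2%. No window of a risen gene held overlapping matches of the RUNX and T-box letters, and none of the 8 fallen genes held any of these letters. A match is a description of these letters and not evidence of binding. Windows are shown for 4 genes that rose, with no annotated exon inside them: Klrk1 and Klrc1 from the complex and Gzmm with a RUNX match, and Samd3 with a T-box match. Capitals mark the match, read 5′ to 3′ on the strand of the gene.
Klrk1, chr6:129623865-129624114, minus strand: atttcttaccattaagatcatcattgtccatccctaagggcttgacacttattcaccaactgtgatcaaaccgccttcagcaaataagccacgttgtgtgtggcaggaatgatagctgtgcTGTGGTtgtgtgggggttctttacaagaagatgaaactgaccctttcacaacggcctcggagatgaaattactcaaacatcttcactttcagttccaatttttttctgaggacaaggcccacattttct
Klrc1, chr6:129678974-129679223, minus strand: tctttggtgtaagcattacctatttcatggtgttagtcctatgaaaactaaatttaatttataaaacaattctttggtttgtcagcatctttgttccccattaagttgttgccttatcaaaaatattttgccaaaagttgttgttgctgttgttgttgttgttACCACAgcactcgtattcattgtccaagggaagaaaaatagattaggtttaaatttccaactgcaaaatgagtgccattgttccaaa
Gzmm, chr10:79688770-79689019, plus strand: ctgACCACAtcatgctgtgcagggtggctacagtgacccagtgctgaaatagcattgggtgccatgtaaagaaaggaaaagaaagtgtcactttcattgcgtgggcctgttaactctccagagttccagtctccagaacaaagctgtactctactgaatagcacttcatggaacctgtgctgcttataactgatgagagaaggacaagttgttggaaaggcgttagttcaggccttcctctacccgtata
Samd3, chr10:26229457-26229706, plus strand: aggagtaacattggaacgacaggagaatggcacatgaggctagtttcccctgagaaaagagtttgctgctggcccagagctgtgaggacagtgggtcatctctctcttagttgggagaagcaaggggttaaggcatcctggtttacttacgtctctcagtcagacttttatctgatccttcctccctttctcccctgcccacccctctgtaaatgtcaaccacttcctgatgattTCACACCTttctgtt

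Among genes of the cytotoxic granule and its release, 4 of 18 tested rose, none fell and 17 were higher at 12 months. The list median was 0.47. Gzmm, a granzyme of innate-like and resting lymphocytes, had 96.1, 67.4, 91.8 and 73.8 CPM at 12 months against 27.5, 28.4, 20.2 and 48.6 CPM at 3 months and a log2 fold change of 1.43 (adjusted p = 0.000342, SE 0.21). Fasl, the death ligand, had 25.8, 32.3, 31.8 and 26.1 CPM at 12 months against 7.2, 6, 10.6 and 4.89 CPM at 3 months and rose by 2.00 (adjusted p = 0.000175, SE 0.28). Both separated the ages without overlap. Nkg7, a granule membrane protein gene, rose by a smaller factor, with 1740.0 ± 131.2 against 1137 ± 225 CPM and a log2 fold change of 0.63 (adjusted p = 0.00537, SE 0.12). Cst7, the gene of the protease inhibitor cystatin F, rose by 0.48 (adjusted p = 0.043, SE 0.12), a call that was lost in 7 of the 8 fits with 1 library left out.

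The classical granule killers did not pass. Gzmk, a granzyme of memory CD8 T cells, had the largest difference of the list, with 137, 83.2, 70.6 and 99.6 CPM at 12 months against 29.1, 2.54, 6.25 and 6.11 CPM at 3 months. The ages did not overlap, but replicate 1 at 3 months stood apart from the other young libraries, and the log2 fold change of 3.08 (adjusted p = 0.184, SE 0.69) was below the threshold. It passed without that library, at a log2 fold change of 4.28, and with DESeq2, with the replicate block and with all 4 groups of CD8 T cells in one fit. Gzmb had 35.7 ± 31.3 against 16.4 ± 14.8 CPM, with an adjusted p of 0.931, Gzma 39.1 ± 34.5 against 26.6 ± 20.8 CPM, with an adjusted p of 0.973, and Prf1, the gene of the pore-forming protein perforin, 94.2 ± 1.74 against 76.5 ± 4.33 CPM, with an adjusted p of 0.469.

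**Figure D2:**
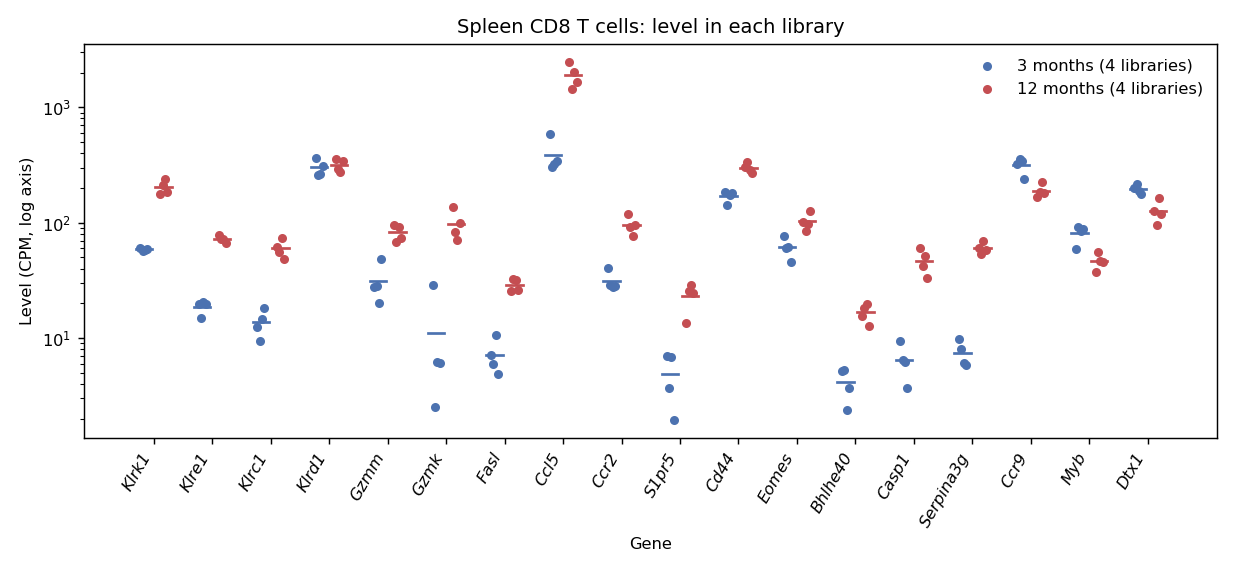
Level of 18 genes in each of the 8 libraries (CPM on a log axis, 4 libraries per age, bars are means). The ages are separated for all shown genes but Klrd1, and replicate 1 of 3 months is the high young point of Gzmk (29.1 CPM) and Ccl5 (588 CPM).

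A few chemokine genes and homing receptors rose, and 1 homing receptor fell. Ccl5 (RANTES), kept as a ready transcript by memory CD8 T cells, had 2473, 1447, 2025 and 1665 CPM at 12 months against 588, 303, 319.7 and 339.6 CPM at 3 months and a log2 fold change of 2.30 (adjusted p = 0.00126, SE 0.24). Replicate 1 was the highest of both ages. Ccl4, another inflammatory chemokine, had 50.8, 27.7, 27.9 and 28.4 CPM at 12 months against 14.1, 10.6, 10.6 and 16.9 CPM at 3 months and rose by 1.39 (adjusted p = 0.00546, SE 0.26), a call lost without replicate 1 of 12 months. Only these 2 of 11 tested cytokine and chemokine genes rose, with a median of 0.41, and Ifng had 10.4 ± 4.2 against 3.52 ± 2 CPM, with an adjusted p of 0.141.

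On the receptor side, Ccr2, the receptor of monocyte chemoattractant proteins, had 119.5, 91, 77.3 and 95.5 CPM at 12 months against 40.5, 29.1, 27.5 and 28.4 CPM at 3 months. It rose by 1.62 (adjusted p = 4.85e-06, SE 0.17), with no overlap between the ages. S1pr5, the sphingosine phosphate receptor of circulating effector cells, had 13.4, 25.5, 28.9 and 24.7 CPM at 12 months against 7.05, 3.7, 6.84 and 1.96 CPM at 3 months and rose by 2.20 (adjusted p = 0.00128, SE 0.36). Ccr9, which directs cells to the small intestine and is expressed by naive CD8 T cells, had 167, 185, 227 and 179.5 CPM at 12 months against 322, 354, 345 and 240.3 CPM at 3 months, and fell by 0.72 on the log2 scale (SE 0.13, adjusted p = 0.00357). Of the 17 tested homing receptors, 3 rose and 1 fell. Cxcr3, the receptor of interferon-induced chemokines, had 336, 196, 227 and 175 CPM at 12 months against 179, 110.2, 108 and 110.2 CPM at 3 months, and just missed the threshold at 0.89 (adjusted p = 0.0555, SE 0.20). Without replicate 1 of 3 months, its highest young library, it passed. Ccr7, a lymph node homing receptor of naive cells, had 839.9 ± 107 against 1004 ± 89.6 CPM, with an adjusted p of 0.534. Among 11 integrins, Itga1, the collagen-binding chain of tissue-resident cells, rose by 3.17 (adjusted p = 0.00689, SE 0.60) at a low level of 6.36 ± 1.27 against 0.656 ± 0.562 CPM, while Itga4 had 416 ± 53.4 against 362 ± 10.3 CPM and Itgb1 167 ± 35.5 against 95.8 ± 36.8 CPM, neither past the threshold.

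Of 18 surface genes used to define memory CD8 T cells, 4 rose, none fell and 14 did not pass, with a median of 0.23. Cd44, the hyaluronan receptor, had 303, 337, 285 and 267 CPM at 12 months against 183, 143, 174 and 180.2 CPM at 3 months and a log2 fold change of 0.82 (adjusted p = 0.000298, SE 0.12), and Il2rb (CD122), the beta chain shared by the interleukin-2 and interleukin-15 receptors, rose by 0.66 (adjusted p = 0.00527, SE 0.12). Neither overlapped between the ages. Cd38, an ectoenzyme that consumes NAD, had 45.3, 28.7, 33.5 and 27 CPM at 12 months against 11.4, 11.3, 4.31 and 8.31 CPM at 3 months and rose by 1.95 (adjusted p = 0.000426, SE 0.29). Ly6c2, another memory marker, had 763 ± 80.9 against 513 ± 142 CPM and did not pass (adjusted p = 0.0969).

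Receptors for interleukin-18 and interleukin-10 rose as well, among 4 of 22 cytokine receptor genes, whose median was -0.00066. The 2 chains of the interleukin-18 receptor are encoded side by side on chromosome 1 (40465552 to 40551705). Il18rap, the accessory chain, had 130.6, 122, 123 and 122 CPM at 12 months against 54.7, 51, 44.5 and 68.7 CPM at 3 months, with a log2 fold change of 1.20 (adjusted p = 2.35e-05, SE 0.14). Il18r1, the binding chain, rose by 0.65 (adjusted p = 0.00945, SE 0.13), a call lost without replicate 3 of 3 months. Il10ra had 54.3 ± 9.76 against 22.6 ± 5.39 CPM and rose by 1.28 (adjusted p = 0.00101, SE 0.20). Il7r, the receptor of the survival cytokine of naive and memory cells, had 1062 ± 148 against 1069.7 ± 95.2 CPM, a log2 fold change of 0.00 (SE 0.11).

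Among checkpoint receptors, 3 of 15 tested rose, with a list median of -0.0006. Tigit, an inhibitory receptor for nectins, had 17.7, 12.6, 9.23 and 8.85 CPM at 12 months against 2.16, 4.39, 2.08 and 2.2 CPM at 3 months and a log2 fold change of 2.18 (adjusted p = 0.00707, SE 0.42), lost without replicate 1 of 12 months. Lag3, an inhibitory receptor for MHC class II, had 13.8, 11.9, 22.1 and 7.45 CPM at 12 months against 7.49, 3, 1.93 and 1.47 CPM at 3 months. Its ages overlapped, and its call at 1.96 (adjusted p = 0.0349, SE 0.46) was lost in 6 of the 8 fits with 1 library left out. The third was Lair1, a collagen receptor. Pdcd1, which encodes PD-1, had 12.7, 10.3, 9.7 and 12.6 CPM at 12 months against 4.89, 5.08, 6.55 and 2.2 CPM at 3 months without overlap and did not pass, at 1.26 (adjusted p = 0.152, SE 0.37).

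Transcription factors of effector and memory differentiation were mostly higher: 4 of 26 tested rose, none fell and 22 were higher at 12 months. The list median was 0.50. Eomes, a T-box factor of memory CD8 T cells, had 101, 85.2, 98 and 127 CPM at 12 months against 76.3, 60.7, 61.4 and 45.5 CPM at 3 months and a log2 fold change of 0.76 (adjusted p = 0.016, SE 0.16). Bhlhe40, a factor of effector and resident T cells, was low in young cells, with 15.6, 18.4, 19.9 and 12.8 CPM at 12 months against 5.18, 5.31, 2.38 and 3.67 CPM at 3 months and a log2 fold change of 2.02 (adjusted p = 0.00218, SE 0.35). Rora, a nuclear receptor, and Runx2 rose by 1.03 (adjusted p = 0.0124, SE 0.21) and 0.88 (adjusted p = 0.039, SE 0.21). With 1 library left out, the Eomes call was lost in 3 of the 8 fits and that of Runx2 in 7, and the Eomes call was also lost with all 4 groups of CD8 T cells in one fit. The Rora call was lost without replicate 1 of 12 months. Tbx21, the gene of T-bet, had 53, 32.9, 33 and 51.2 CPM at 12 months against 29.4, 15, 13.7 and 35.9 CPM at 3 months, with overlapping ages and a log2 fold change of 0.87 (adjusted p = 0.185, SE 0.27). Zeb2 and Maf had 16.4 ± 6.96 against 6.26 ± 2.25 CPM and 20.5 ± 11 against 3.6 ± 4.53 CPM, and neither passed (adjusted p = 0.0798 and 0.233). All 3 of these uncalled factors passed without the filter on low counts. Zeb2 also passed with DESeq2, Tbx21 with the replicate block, and Maf with the block and without replicate 3 of 12 months or replicate 2 of 3 months.

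Genes of inflammatory cell death and of protease control showed some of the highest fold changes. Casp1, the caspase of the inflammasome that matures interleukin-1 beta and interleukin-18, had 60.1, 42.3, 51.3 and 32.8 CPM at 12 months against 9.5, 6.47, 6.25 and 3.67 CPM at 3 months and a log2 fold change of 2.83 (adjusted p = 1.69e-06, SE 0.27). Casp4, its neighbour on chromosome 9 and the sensor of intracellular lipopolysaccharide, had 21.9, 30.3, 36.8 and 33.5 CPM at 12 months against 3.6, 3.93, 7.88 and 4.89 CPM at 3 months, with a log2 fold change of 2.58 (adjusted p = 1.86e-05, SE 0.30). Naip2, which encodes a sensor of a bacterial secretion system protein, rose by 2.14 (adjusted p = 0.00285, SE 0.37), with 15.6, 15.5, 15.8 and 12.8 CPM at 12 months against 2.45, 2.31, 5.95 and 2.69 CPM at 3 months. These 3 genes stayed called under all 13 alternatives. In the list of inflammatory caspases and their partners 2 of 9 tested genes rose and 7 did not pass. Pycard, the adaptor, had 149 ± 29.4 against 149 ± 31 CPM.

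Serpina3g, a serpin that inhibits cysteine cathepsins in lymphocytes, had 60.5, 53.2, 69.5 and 58.4 CPM at 12 months against 9.79, 8.08, 6.1 and 5.87 CPM at 3 months, and with Klrk1 the smallest adjusted p, at a log2 fold change of 3.01 (adjusted p = 9.59e-09, SE 0.22). Ctla2a, a cathepsin L inhibitor gene, had 222 ± 46 against 87.8 ± 21 CPM and rose by 1.35 (adjusted p = 3.18e-05, SE 0.16). The serpin and cystatin list had 2 of 7 tested members rising, Serpina3g and Cst7, and a median of 0.48. Ahnak, a large scaffold protein gene of memory T cells, had 606, 452, 513 and 475 CPM at 12 months against 306, 245, 256 and 302 CPM at 3 months and a log2 fold change of 0.89 (adjusted p = 6.69e-05, SE 0.11). It was the 1 gene of 18 in the S100, annexin and galectin list that passed, although all 18 were higher at 12 months (median 0.37). S100a6 had 119 ± 50.4 against 28.2 ± 18.5 CPM and Anxa2 185 ± 62.5 against 79.8 ± 23.3 CPM, with adjusted p-values of 0.223 and 0.0742, and both passed in some of the alternatives. Plek, the gene of pleckstrin, a substrate of protein kinase C, had 165 ± 17.9 against 56.2 ± 14.6 CPM and rose by 1.56 (adjusted p = 2.23e-06, SE 0.16).

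The 11 fallen genes changed by small factors. Myb, a transcription factor that preserves stem-like T cells, had 37.7, 55.2, 46.5 and 45.4 CPM at 12 months against 59.3, 91, 84.8 and 87.5 CPM at 3 months and fell by 0.79 on the log2 scale (SE 0.17, adjusted p = 0.0144). Dtx1, the Notch-regulated ubiquitin ligase gene Deltex, had 127, 94.9, 162 and 119 CPM at 12 months against 198, 218, 189 and 177 CPM at 3 months, and Atp1b1, a subunit of the sodium pump, had 37, 36.5, 37.9 and 56.6 CPM at 12 months against 73.8, 67.2, 83.3 and 72.4 CPM at 3 months. Their log2 fold changes were -0.62 (adjusted p = 0.0194, SE 0.13) and -0.81 (adjusted p = 0.0111, SE 0.16). Smc4, a condensin subunit, had 877 ± 49.3 against 1241 ± 181 CPM and a log2 fold change of -0.49 (adjusted p = 0.0208, SE 0.11). The calls of Myb, Dtx1, Smc4 and Atp1b1 were lost in 5, 5, 7 and 3 of the 8 fits with 1 library left out. In the list of naive and central memory genes 3 of 25 fell, Myb, Ccr9 and Trib2, none rose and 22 had a negative fold change, with a median of -0.23. The Trib2 call was lost in 7 of the 8 fits with 1 library left out, and that of Ccr9 in none. In 8 of the 25 genes, the 3 called ones included, the libraries of 12 months lay entirely below those of 3 months. Over all genes tested, 4.89% separated the ages in either direction. The factors that define naive cells did not pass: Tcf7 had 799 ± 54.3 against 904 ± 35.8 CPM (adjusted p = 0.752) and Lef1 854 ± 73.4 against 1036 ± 63.5 CPM (adjusted p = 0.352).

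**Figure D3:**
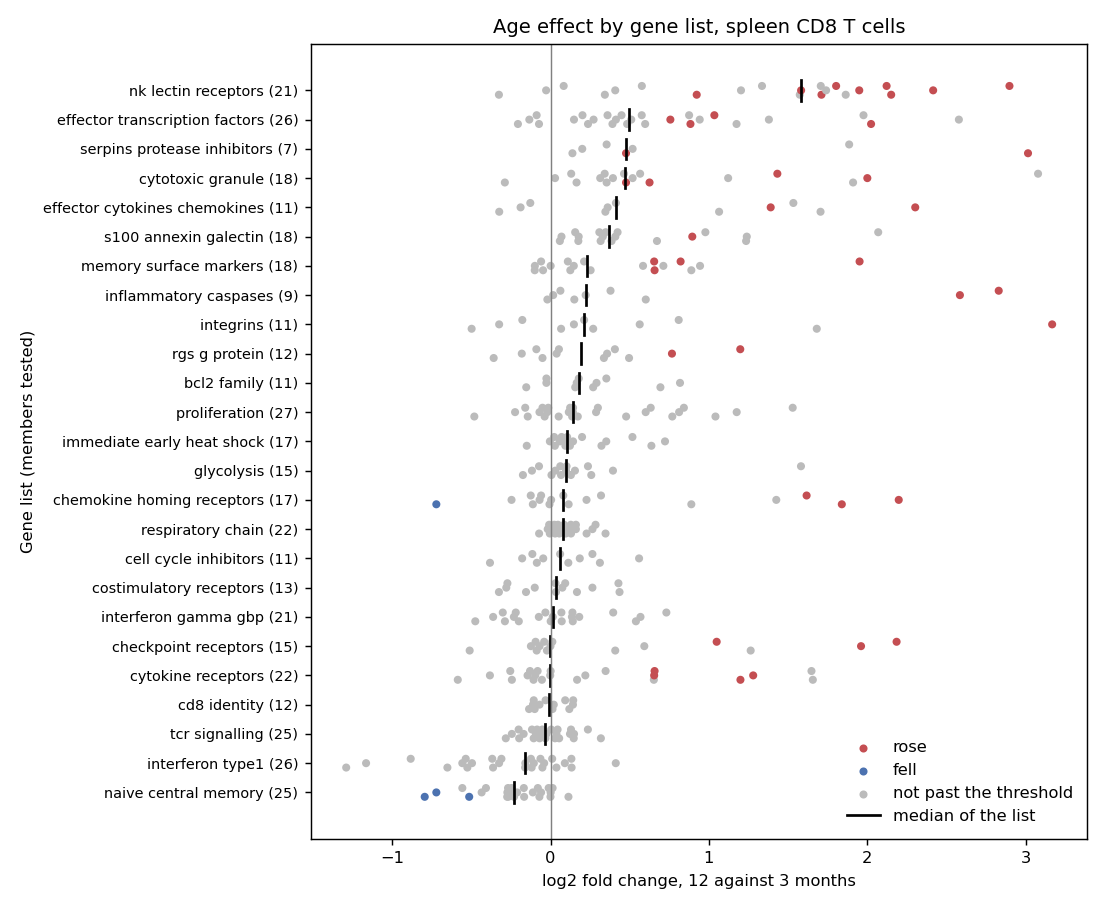
log2 fold change of every tested member of 25 gene lists, with the number of tested members in brackets and a black line at the median of each list. NK lectin receptors have the highest median (1.58) and naive and central memory genes the lowest (-0.23).

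Other programs gave no called gene. None of 26 type I interferon response genes passed, although 20 were lower at 12 months, with a median of -0.16. Usp18, which dampens interferon signalling, was closest, with 45.2, 51.6, 46.9 and 44.7 CPM at 12 months against 92.7, 59.4, 65.9 and 79.5 CPM at 3 months and a log2 fold change of -0.65 (adjusted p = 0.0511, SE 0.16), and Ifit1 had 51.8 ± 25.2 against 94.8 ± 25 CPM with an adjusted p of 0.534. Usp18 passed with DESeq2, with the replicate block and without replicate 2 of 3 months, and both genes passed without the filter on low counts. None of 27 proliferation genes, 11 inhibitors of the cell cycle, 25 T cell receptor signalling genes, 13 costimulatory receptors, 15 glycolysis genes, 22 respiratory chain genes, 11 genes of the Bcl-2 family, 17 immediate early and heat shock genes or 21 interferon-gamma response genes passed either. Their medians lay between -0.03 and 0.18. Of the G protein signalling list, 2 of 12 rose, Rgs1 and Ptger4, with a median of 0.19. Rgs1 overlapped between the ages, and the calls were lost in 6 and 7 of the 8 fits with 1 library left out.

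Some called genes had a called neighbour. Of 116 called genes placed on the GENCODE M21 annotation, 24 (20.7%) fell into 11 clusters of called genes within 200 kb of each other, and all of these rose. Besides the 4 genes of the NK complex, the clusters included Klra7 with the pseudogene Klra13-ps, Il18r1 with Il18rap, Ccl5 with Ccl4, Casp1 with Casp4 (chromosome 9, 5298517 to 5336783), Ctla2b with Ctla2a, Plek with Cnrip1, Gpr15 with Cldnd1, Ms4a4c with Ms4a6d and Chsy1 with Lrrk1. Several of these are tandem paralogs, for which reads could be shared in counting. No share of clustered genes in all tested genes was computed.

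Markers of other cells moved with age in part, and their part in the results above was not tested. Summed over the 8 NK cell markers of a list, libraries of 12 months held 38.8 to 52.2 CPM and those of 3 months 12.0 to 16.9 CPM. Klrb1c, Klrb1f and Klri2 made up most of the sum. Klrb1f had 11.9, 17.4, 6.26 and 10.2 CPM at 12 months against 3.17, 5.31, 3.57 and 1.96 CPM at 3 months, at 1.71 (adjusted p = 0.0531, SE 0.42). The defining NK receptor gene Ncr1 and Khdc1a had no count in any of the 8 libraries, which allows up to 0.152 CPM at 12 months and 0.136 CPM at 3 months (3 counts over a group, counting error only). Gamma-delta T cell markers summed to 34.3 to 53.8 CPM at 12 months and 8.31 to 20.8 CPM at 3 months. Tcrg-C2, a constant segment of the gamma chain that alpha-beta T cells can also transcribe, carried much of this with 16.3, 26.8, 20.7 and 31.2 CPM at 12 months against 5.04, 1.85, 6.84 and 3.42 CPM at 3 months and a log2 fold change of 2.42 (adjusted p = 0.000347, SE 0.35). Trdc, the delta constant segment that defines these cells, had 3.31 ± 2.96 against 2.33 ± 0.535 CPM (adjusted p = 0.968), and Sox13 and Trdv4 had no count. Of the 4 tested gamma-delta markers 3 had a positive fold change, with a list median of 1.09. In 2 of them the libraries of 12 months lay entirely above those of 3 months, and only Tcrg-C2 passed.

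B cell markers went the other way, at 615 to 778 CPM at 12 months and 794 to 950 CPM at 3 months, of which Ighm had 579 ± 52.5 against 758 ± 55.9 CPM. None of the 8 tested passed. Macrophage markers summed to 8.38 to 19.5 CPM at 12 months and 5.62 to 15.5 CPM at 3 months, and neutrophil markers to 0.939 to 26.8 CPM and 0 to 2.83 CPM. Markers of conventional CD4 and regulatory T cells summed to 49.1 to 61.9 CPM and 57.5 to 81.5 CPM. Dendritic cell markers (138 to 222 and 147 to 210.2 CPM), plasma cell markers (40.1 to 82.9 and 32.1 to 84.8 CPM) and NKT cell markers (154 to 184 and 137 to 168 CPM) overlapped between the ages in their sums. The NKT sum includes Klrb1c, which rose, with 17.1 ± 4.05 against 5.37 ± 2.11 CPM. Both of the 2 tested NKT markers had a positive fold change, with a list median of 0.88. Markers of tumor and stroma, mostly Pecam1, held 83.2 to 109.5 CPM at 12 months and 108.9 to 147 CPM at 3 months. Haemoglobin and platelet transcripts reached 174 CPM in 1 library of 3 months and at most 9.51 CPM at 12 months.

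The young libraries varied among themselves in the genes that rose. Replicate 1 was the highest of the 4 young libraries in 47 of the 108 genes, against 16, 19 and 26 for replicates 2, 3 and 4, and it lay nearest to the libraries of 12 months on the first principal component. Without it 138 genes were called. At 12 months replicate 1 was the highest in 39 of the 108 genes, against 21, 19 and 29 for the others. The order of the libraries over all tested genes was not counted, so it may not be particular to the risen genes.

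Use of T cell receptor V segments was compared as a measure of how evenly the cells draw on the repertoire. Counts over Trbv segments ran from 1114 to 3435 per library. The inverse Simpson index, which is the number of equally used segments that would give the same evenness, was 14.8 ± 0.439 at 12 months and 14.99 ± 0.356 at 3 months (exact permutation test, two-sided, p = 0.6, n = 4 each, smallest possible p = 0.0286). For Trav segments, with 265 to 667 counts per library, it was 30.2 ± 4.22 and 33.2 ± 3.38 (exact permutation p = 0.314). No difference was detectable at this depth, and V segment use says nothing of single clones. Among 27 Trbv segments Trbv13-1 alone separated the ages, with 2.79% ± 0.374 of Trbv counts at 12 months and 3.94% ± 0.27 at 3 months (exact permutation p = 0.0286, 0.771 after Benjamini-Hochberg adjustment over the segments). Among 82 Trav segments Trav5-4 alone did so, with 1.12% ± 0.787 of Trav counts at 12 months and 3.19% ± 0.941 at 3 months (exact permutation p = 0.0286, adjusted 1). Trbv12-2 was the most used segment in 7 of the 8 libraries, with 11.6% ± 0.602 and 11.8% ± 1.57.

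**Figure D4:**
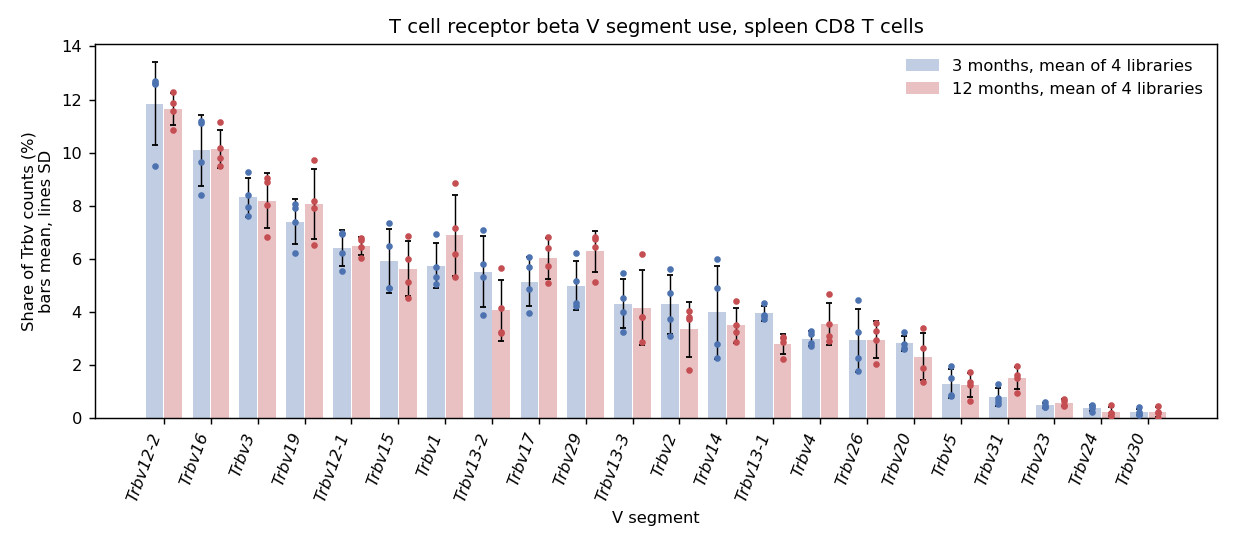
Share of Trbv counts taken by each V segment with a mean share of at least 0.2% (bars are means, lines SD, points the 4 libraries of each age). Shares overlap between the ages for every segment shown but Trbv13-1, at 2.79% against 3.94%.

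Tumor CD8 T cells of the same ages were compared to see where the splenic difference stands apart. In the tumor no gene passed among 11804 tested (edgeR, 0% called; 486 had an unadjusted p under 0.05). Of the 107 genes tested there that rose in spleen, 73 (68.2%) had a positive age effect, with a median of 0.19, against 49.8% of all genes and a median of -0.00099. The age effects differed between spleen and tumor for 19 of 13285 genes (0.143%), 18 with the higher effect in spleen and 1 (0.00753%) with the lower. This test uses the same spleen libraries as the comparison above. Klrk1 differed by 2.33 (SE 0.20, adjusted p = 4.7e-07) and Klrc2 by 2.97 (SE 0.30, adjusted p = 3.81e-06). Serpina3g differed by 2.84 (SE 0.38, adjusted p = 0.000937), and Casp4 and Casp1 by 1.98 (SE 0.30) and 2.27 (SE 0.39). The Casp1 difference was lost without replicate 2 or 3 of 3 months in spleen. Both chains of the interleukin-18 receptor were in the set, Il18rap at 1.83 (SE 0.27) and Il18r1 at 1.45 (SE 0.20), as were Plek at 1.96 (SE 0.28) and Cd44 at 0.99 (SE 0.17).

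Levels in the tumor place these genes. Klrk1 had a mean of 1000.2 CPM in tumor cells of 3 months and 685 CPM at 12 months, above the 204 CPM of the old spleen. Of the 108 genes, 70 had means in the tumor at both ages above that of the old spleen, and in 41 all 8 tumor libraries exceeded all 4 old spleen libraries, among them Serpina3g, Ccr2, Casp4, Tigit, Lag3 and Bhlhe40. Lag3 was at 708 and 495 CPM in the tumor against 13.8 CPM in the old spleen. Another 30 genes had both tumor means below that of the old spleen, and in 8 all 8 tumor libraries lay below all 4 old spleen libraries. Gzmm was one, at 26.6 and 25.3 CPM in the tumor against 82.3 CPM in the old spleen. S1pr5 was another, at 4.46 and 6.47 against 23.1 CPM. Klra7 and Klrb1c were also lower in tumor means than in the old spleen, while Klrc1 stood at 502 and 346 CPM there. Eomes had 35.6 CPM in the young and 92.2 CPM in the old tumor against 103 CPM in the old spleen. These tissue differences are given as levels, without a test. The same counts were not made over all tested genes, so they do not set the 108 genes apart from other genes.

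Conventional CD4 T cells of the spleen shared part of the change. In their own comparison 460 of 11726 tested genes passed (3.92%), 230 of them higher at 12 months (1.96%). Of the 108 genes of the CD8 T cells, 33 were among these 230, 30.6% of one list and 14.3% of the other. Only 95 of the 108 were tested in CD4 T cells, and 81 of these (85.3%) had a positive age effect. Their median was 0.99, against 50.1% positive and a median of 0.0024 over all genes. With 1 young CD4 library left out, 79 to 84 of 97 tested were positive. The 33 include Ccl5, Ccl4, Cd44, Il2rb, Tigit, Lag3, Bhlhe40, Casp1, Casp4, Naip2, Serpina3g and Ahnak. Of the 3 CD4 libraries of 3 months, 2 held 7.85% and 10.6% ribosomal protein transcripts against 4.17% in the third. With 1 young CD4 library left out, the 230 became 80 without replicate 1, 1051 without replicate 3 and 119 without replicate 4, and the 33 became 18, 49 and 21. Without the 2 ribosome-rich libraries, replicates 1 and 4, 72 genes rose in CD4 T cells, and 16 of them were among the 108. Then 1 library stood for the age of 3 months and was assumed to vary like the others. The age effects of the 2 cell types differed for 34 of 13139 genes (0.259%), 15 of them higher in CD8 T cells, and for 1 gene without the 2 libraries, Ptpn11 (-2.12, SE 0.28, with all libraries). With all libraries, Klrk1 differed by 2.31 (SE 0.36, adjusted p = 0.00369) and Tcrg-C2 by 4.45 (SE 0.71, adjusted p = 0.00404). Klrk1 had 17.1 CPM in young and 13.5 CPM in old CD4 T cells.

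In spleen regulatory T cells 6 genes rose (0.0489% of 12261 tested), 1 of them among the 108. Of the 83 of the 108 genes tested there, 60 (72.3%) had a positive age effect, with a median of 0.23, against 49.0% of all genes. A difference from the CD8 T cells was called for 1 of 13257 genes (0.00754%), A930011G23Rik, at 3.13 (SE 0.52, adjusted p = 0.0389). It was lost in 10 of the 16 fits with 1 library left out and with the replicate block, under which 1 other gene was called. Casp1, Casp4 and Bhlhe40 had age effects of 0.76, 0.87 and 1.01 there, each smaller than in CD8 T cells, and none of these 3 differences passed the test.

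**Figure D5:**
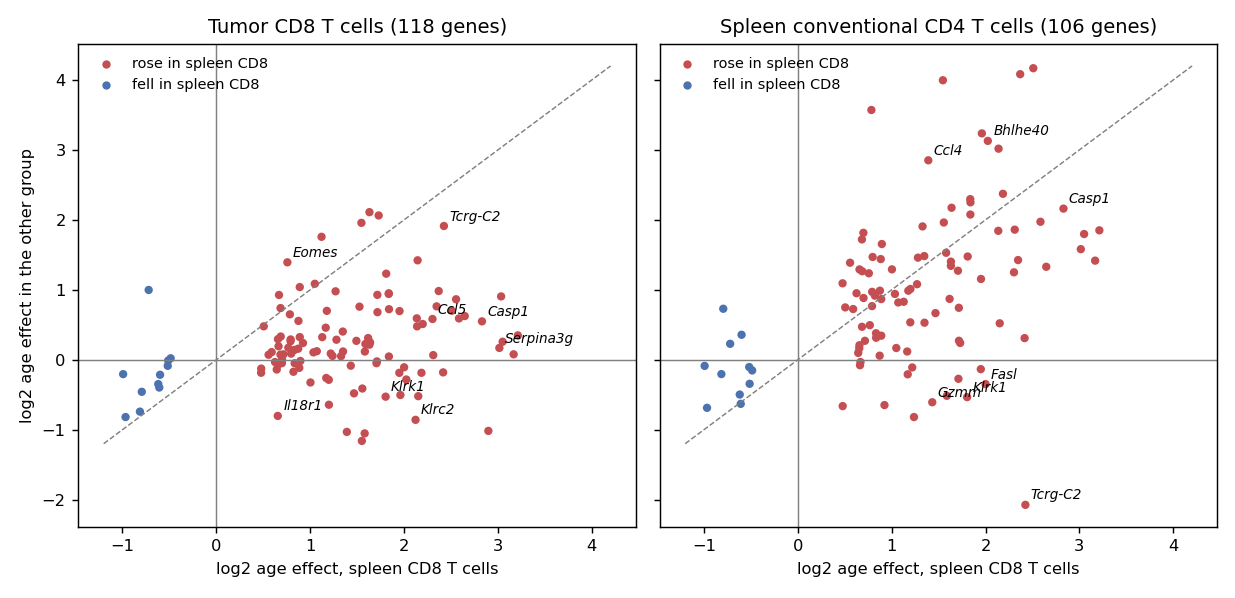
Age effect (log2, 12 against 3 months) of the genes that rose (red) or fell (blue) in spleen CD8 T cells, against their age effect in tumor CD8 T cells (118 genes tested) and in spleen conventional CD4 T cells (106 genes tested), with the line of equal effects dashed. Klrk1 lies above 1 on the horizontal axis and below 0 on the vertical axis of both panels, and Casp1 at 2.83 has 0.55 in the tumor and 2.16 in CD4 T cells.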

How the data were processed

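RNA sequencing counts per gene were analysed as deposited. Per the submitters' processing notes, the authors aligned reads with STAR 2.5.3 to mm10 and counted them with featureCounts. No source used here gives the annotation release, the strand setting or the handling of multi-mapped reads, so counts of paralogs and antisense genes are uncertain. Groups follow the library titles. The genes, lists and comparisons described were chosen with earlier results of these data known.

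Counts were tested with edgeR 4.0.16 (filterByExpr, TMM scaling, robust quasi-likelihood test, two-sided, limma 3.58.1, R 4.3.3) with Benjamini-Hochberg adjustment over all tested genes and a threshold of 0.05. All adjusted p-values are from this fit. SE is the log2 fold change divided by the root of the test statistic. The age comparison used the 8 spleen CD8 libraries. Differences of age effects were interaction terms over 4 groups, without pairing of libraries in the main fit. Alternatives were DESeq2 1.42.0, its size factors, no filter, a wider fit, a replicate block and leaving out each library. The DESeq2 test was run without filterByExpr, on every gene with a count. V segment diversity was compared by an exact permutation test. The fit was tested on simulated data. Each library counted as 1 replicate. Pairs of libraries differed by more than sampling noise, which does not show that they came from separate animals.

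Named genes are a selection from a rule: the 16 highest and up to 12 lowest log2 fold changes among called genes with a mean of at least 10 CPM and no overlap between ages, up to 4 called and 3 abundant uncalled members of each list, and the 4 smallest adjusted p-values on each side of each difference. Others, among them Gzmk, Cxcr3, Pdcd1, Tbx21, Usp18 and the markers of other cells, were named after their values were seen. Library totals limit precision for genes of a few CPM. Positions are from GENCODE M21 and promoters from RefSeq, both GRCm38. Results for some genes are not reported here.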

Additional observations from a re-analysis of the deposited data

Results flagged for a closer look

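In 14 of 156 checks of 4 libraries each, 1 library lay far from the other 3. The threshold used flags about 1 in 20 groups by chance, for independent groups, and these checks share the same 8 libraries. Replicate 1 of 3 months was the high library for Cst7 (223 CPM, others 174 to 178), Ccl5 (588, others 303 to 339.6), Ccr2 (40.5, others 27.5 to 29.1), Gzmk (29.1, others 2.54 to 6.25) and Cxcr3 (179, others 108 to 110.3 CPM). Replicate 2 of 3 months was low for Klre1 (15.01 CPM, others 19.7 to 20.5) and high for Tigit (4.39, others 2.08 to 2.20) and Maf (10.4, others 1.19 to 1.58 CPM). Replicate 3 of 3 months was high for Naip2 (5.95 CPM, others 2.31 to 2.69). At 12 months replicate 1 was high for Ccl4 (50.8 CPM, others 27.7 to 28.4) and Il18rap (130.6, others 122 to 123 CPM). Replicate 4 of 12 months was low for Naip2 (12.8 CPM, others 15.5 to 15.8) and high for Atp1b1 (56.6, others 36.5 to 37.9) and Samd3 (149.9, others 107 to 113 CPM).

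The age effect in spleen CD8 T cells was tested against that of another group by an interaction term in edgeR. It exceeded the effect in tumor CD8 T cells by 2.33 on the log2 scale for Klrk1, 2.97 for Klrc2, 2.67 for Klrc1, 2.08 for Fasl, 1.45 for Il18r1, 1.83 for Il18rap and 2.84 for Serpina3g. It also did so by 1.96 for Plek, 1.98 for Casp4, 2.27 for Casp1, 2.30 for Bhlhe40 and 0.99 for Cd44. Against conventional CD4 T cells the difference was 2.31 for Klrk1, 4.45 for Tcrg-C2 and -2.12 for Ptpn11. Against regulatory T cells it was 3.13 for A930011G23Rik.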

How the results depend on the processing

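The 119 genes called for age were 119 with DESeq2 size factors, 164 with DESeq2, 192 without the filter on low counts and 75 with all 4 groups of CD8 T cells in one fit. DESeq2 was also run without that filter, here on 33038 genes against 11677, so its counts reflect both changes. Leaving out 1 library gave 72 to 138. The spleen and tumor difference was called for 19 genes, 42 with DESeq2, 81 without the filter and 12 to 29 with 1 library left out (12 without replicate 2 or 3 of 3 months in spleen, 29 without replicate 4 of 3 months in tumor). The difference from conventional CD4 T cells was called for 34 genes, 371 with DESeq2, 447 without the filter and 8 to 1641 with 1 library left out (8 without CD4 replicate 1 or 4 of 3 months, 1641 without replicate 3). It was called for 1 gene without both ribosome-rich CD4 libraries, an alternative chosen after seeing the data. The difference from regulatory T cells was called for 1 gene, 37 with DESeq2, 45 without the filter and 0 to 3 with 1 library left out. The cause of these shifts was not tested. No gene called for age changed direction under the alternatives run. Among named genes that did not pass, Gzma ran from -0.15 to 1.21 on the log2 scale, and Cd3e, Cd69 and Il7r, all near 0, also crossed 0. With the replicate number as a block, 172, 37, 123 and 1 genes were called in the same order, of which 118, 19, 33 and 0 were among those called without it. Same-numbered libraries of the 2 ages correlated at 0.117, 0.0941, 0.0213 and 0.0845 in their deviations, each above the best other number, which is a hint from the data and not a pairing in the labels. Within replicate numbers the Trbv diversity difference was -0.176 (replicate block, exact p = 0.625) and the Trav difference -3.03 (exact p = 0.375).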
